A study of Homo sapiens with 12 samples.

Results

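Aminoacyl-tRNA synthetases attach each amino acid to its transfer RNA. The set described here held 35 human genes, 19 for the cytosolic enzymes and 16 for the mitochondrial ones, taken as a fixed list of symbols out of 20046 genes named on the array. Of the 35, 34 had a probe, with 39 probes in all. CARS1, the cytosolic cysteinyl enzyme, had none in the annotation used and was not analysed here. The brightest probe of each of the 34 genes was above background on every array, and all 34 (18 cytosolic and 16 mitochondrial) were among the 11419 genes tested.

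The arrays measured bulk RNA from 2 human lymphoma cell lines grown in vitro. TMD8 belongs to the activated type of diffuse large B-cell lymphoma, and DOHH2 derives from a follicular lymphoma that had transformed. Each line received DMSO, the vehicle, or ST5589 at a dose of 300 nM, and the 4 resulting groups had 3 arrays each. The labels describe ST5589 as derived from ST1926, and the series title calls it an atypical retinoid. The labels give no exposure time, and nothing says that the 3 arrays of a group came from separate cultures. The p-values thus reflect the spread among arrays alone, which may be technical, and the small number of arrays limits the precision. In bulk RNA, fewer cells carrying a transcript and less transcript per cell cannot be told apart.

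In the cytosol the synthetases supply the ribosome. Several of them are held together with scaffold proteins in the multi-synthetase complex, and the glutamyl-prolyl enzyme EPRS1 joins a pair of activities in one chain. Mitochondria translate their own small set of respiratory-chain proteins with a separate group of synthetases, made from nuclear genes and imported. GARS1 and KARS1 are exceptions, since each gene encodes both the cytosolic and the mitochondrial form. When amino acids run short, uncharged transfer RNA activates the kinase GCN2, phosphorylation of eIF2 favours translation of the transcription factor ATF4, and ATF4 raises amino acid enzymes, transporters and many cytosolic synthetases. ATF4 binds with C/EBP partners at a composite element.

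The composite element was searched for as TGATGNAAN on both strands in RefSeq promoters of build GRCh38.p14, from 250 bases before to 50 bases after each annotated start. Promoters were held for 30 of the 35 members. AARS2, LARS1, VARS1, VARS2 and YARS1 were not covered. The letters were found in 7 of 16 cytosolic members (43.8%), in 1 of 14 mitochondrial members (7.14%) and in 1215 of 27305 genes overall (4.45%). The 8 matches are shown because of the 3 patterns searched this one had the most unequal shares between the classes, which was not tested. Each is printed in the direction of transcription with the 9 matching letters in capitals, which are either TGATGNAAN or its reverse complement NTTNCATCA.
AARS1, chr16:70289676-70289704, minus strand: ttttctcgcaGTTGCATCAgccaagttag
CARS1, chr11:3057408-3057436, minus strand: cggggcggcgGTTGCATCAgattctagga
GARS1, chr7:30594834-30594862, plus strand: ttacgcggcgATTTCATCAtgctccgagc
IARS1, chr9:92293693-92293721, minus strand: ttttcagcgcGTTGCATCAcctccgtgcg
MARS1, chr12:57488053-57488081, plus strand: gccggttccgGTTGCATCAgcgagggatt
NARS1, chr18:57621804-57621832, minus strand: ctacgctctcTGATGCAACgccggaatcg
TARS1, chr5:33440956-33440984, plus strand: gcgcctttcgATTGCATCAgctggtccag
YARS2, chr12:32756076-32756104, minus strand: tccacactgcTGATGGAAAaattaagttt
In 6 of the 8 genes the element began within 40 bases of the annotated start: at position 2 in TARS1, 15 in NARS1, -3 in CARS1, -5 in MARS1, -14 in IARS1 and -34 in GARS1, counting the start as 1. It lay at -188 in AARS1 and at -197 in YARS2. The stricter form TGATGCAAT, which is contained in the looser one, occurred in TARS1 alone among the members and in 80 genes overall (0.293%). The E-box CACGTG, which reads the same on both strands, was found in 1 cytosolic member (IARS1) and in 3 mitochondrial members (CARS2, EARS2 and MARS2, 21.4% of 14), against 8.77% of all genes. A match describes these letters only and is no evidence of binding.

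The arrays had 47231 probes, with median intensities of 90.0 to 113 and 38.0% to 46.1% of probes above background. All TMD8 arrays lay on one chip and all DOHH2 arrays on another, so the effects of line and of chip cannot be told apart. DMSO arrays held the first used places on either chip and ST5589 arrays the later ones, so treatment cannot be told apart from place either. The first TMD8 DMSO array, the first DOHH2 DMSO array and the third DOHH2 ST5589 array stood apart from their groups, with median absolute deviations over genes of 0.17, 0.17 and 0.12 on the log2 scale. The first DOHH2 ST5589 array came close to these at 0.10. It had the lowest median intensity (90.0) and share above background (38.0%), and stayed in the setting that left out those 3 arrays. The second DOHH2 ST5589 array had signal, with a median equal to 4.3% of that in TMD8, at 21 probes that were bright in TMD8 and below the background limit on the remaining 5 DOHH2 arrays. Of 8 pan-B-cell markers with a probe, 7 were above background in all groups and PAX5 in none. T-cell and NK-cell markers were above background in all 3 arrays of no group. Of 7 germinal centre markers, LMO2 and SERPINA9 were above background in all groups and S1PR2 in none. BCL6 and MYBL1 were above background in TMD8 and on no DOHH2 DMSO array, and MME and GCSAM in DOHH2 and on no TMD8 array. The summed background-corrected intensity of 7 activated B-cell markers, all above background in every group, was 13400 to 15200 in TMD8 and 5240 to 7860 in DOHH2. Sums were also higher in TMD8 for the pan-B-cell markers (12100 to 13200 against 5220 to 7260) and for the germinal centre markers (2230 to 3100 against 638 to 903). Of 7 myeloid markers and 8 stromal or epithelial ones, at most 3 and 2 were above background in any group, with sums of at most 277 and 180.

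The first comparison set DOHH2 against TMD8 under DMSO. Of the 34 members, 12 were higher and 10 were lower in DOHH2 (limma, Benjamini-Hochberg adjusted p under 0.05), or 64.7%, where 53.8% of all 11419 genes were called. The cytosolic class had 8 higher and 5 lower of 18, and the mitochondrial class 4 higher and 5 lower of 16. Of all genes 26.1% were called higher and 27.7% lower. Arrays of the lines did not overlap for 12 members higher and 11 lower in DOHH2, where 28.4% and 30.6% of all genes did so. The median difference was 0.20 on the log2 scale for cytosolic members, -0.11 for mitochondrial members and -0.02 for all genes. The median size of the difference, regardless of sign, was 0.36 for the members and 0.33 for all genes. The tyrosyl (YARS1), glycyl (GARS1) and alanyl (AARS1) enzymes of the cytosol led the genes higher in DOHH2, with the mitochondrial histidyl (HARS2) and arginyl (RARS2) enzymes. Both valyl enzymes, VARS1 and VARS2, and the mitochondrial seryl enzyme SARS2 led those lower in DOHH2.

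The same line difference measured under ST5589 uses the other 6 arrays. There 11 members were higher and 8 were lower in DOHH2, 55.9% of the 34 against 54.1% of all genes (26.1% higher, 28% lower). The cytosolic class had 7 higher and 4 lower of 18, and the mitochondrial class 4 higher and 4 lower of 16. The median difference was 0.13 for cytosolic members, 0.0035 for mitochondrial members and -0.03 for all genes. In this setting the negative mitochondrial median under DMSO was thus not seen under ST5589, a change that was not tested. Without the 3 arrays that stood apart it was -0.06 under DMSO and -0.04 under ST5589. Groups did not overlap for 12 members in each direction, against 30.5% of all genes higher and 33% lower. Of the 34 members, 18 were called under both treatments, all in the same direction, where 46.9% of all genes were called so (22.8% higher, 24.1% lower). The cytosolic genes higher in DOHH2 both times were AARS1, GARS1, MARS1, SARS1, TARS1 and YARS1, and those lower were FARSA, FARSB, QARS1 and VARS1. The mitochondrial genes higher both times were HARS2, MARS2, NARS2 and RARS2, and those lower were AARS2, EARS2, SARS2 and VARS2. The EARS2 call held in 7 of 24 alternative settings under each treatment. EPRS1, KARS1, LARS1 and TARS2 were called under DMSO only and WARS1 under ST5589 only. That these 5 differ between the treatments was tested by the interaction, which called none of them. Under DMSO the EPRS1 call was lost in 11 of 24 alternative settings and the KARS1 call in 6. The other 11 members were called in neither comparison: HARS1, IARS1, NARS1 and RARS1 of the cytosol, and CARS2, FARS2, IARS2, LARS2, PARS2, WARS2 and YARS2 of the mitochondrion. Across the 34 members the differences under the 2 treatments had a Pearson correlation of 0.96, and across all genes of 0.98. Genes are not independent replicates, and both sets of arrays lay on the same pair of chips. When quantile normalization was replaced by scaling to a common median, 9 members (5 higher, 4 lower) were called under DMSO and 7 (5 higher, 2 lower) under ST5589. Over all 11419 genes that scaling called 1671 higher and 2252 lower under DMSO, where the quantile setting called 2982 and 3167. The share of members called under DMSO was thus below that of all genes with this scaling, and above it in the quantile setting.

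**Figure D1:**
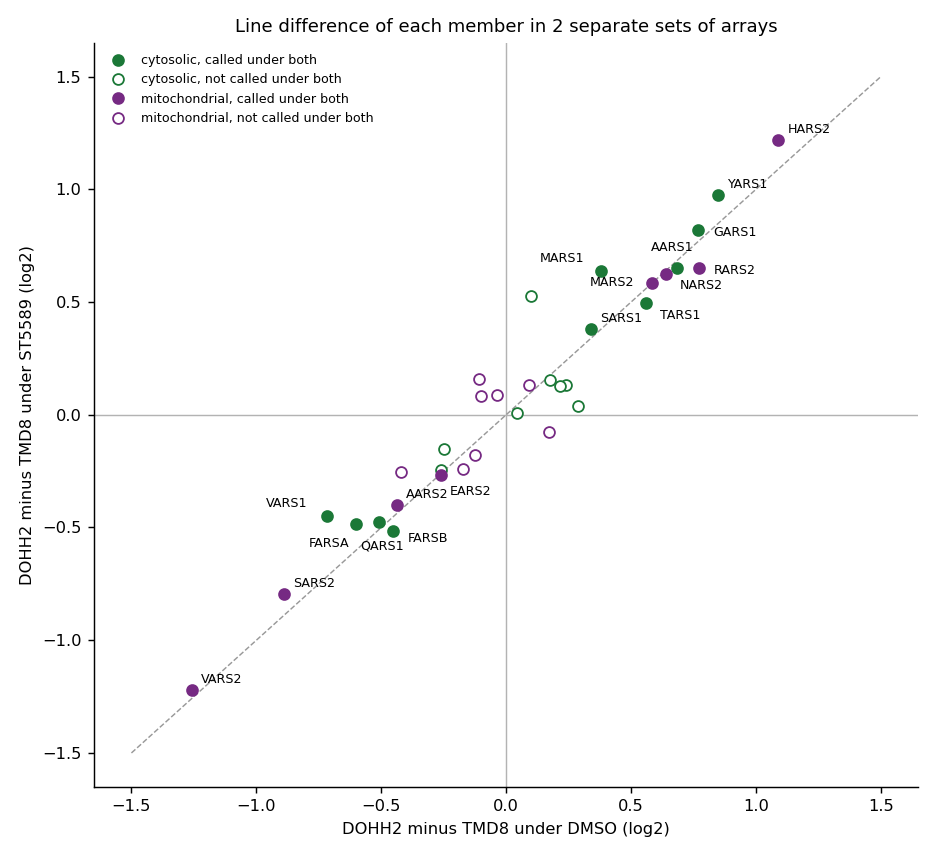
Difference between the lines for each of the 34 members, DOHH2 minus TMD8 in log2 units, under DMSO (horizontal axis) and under ST5589 (vertical axis). Green points are cytosolic and purple points mitochondrial enzymes, filled points are the 18 members called under both treatments, and the dashed line marks equal differences. HARS2 (1.09 and 1.22) and VARS2 (-1.26 and -1.22) lie at the ends.

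YARS1 charges tyrosine in the cytosol, and secreted fragments of it are known to act as cytokines. On the normalized log2 intensity scale, its TMD8 arrays read 10.02, 10.16 and 10.17 under DMSO and 10.25, 10.06 and 10.33 under ST5589, and its DOHH2 arrays 10.85, 10.98 and 11.07 under DMSO and 11.12, 11.13 and 11.31 under ST5589. All 6 DOHH2 arrays were above all 6 TMD8 arrays. The difference was 0.85 ± 0.10 (SE) under DMSO, with a 95% interval of 0.63 to 1.06 (limma adjusted p = 6.25e-06), and 0.97 ± 0.10 under ST5589 (adjusted p = 1.61e-06).

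GARS1 charges glycine in both compartments. It gave 11.28, 11.36 and 11.32 in TMD8 under DMSO, 11.57, 11.34 and 11.45 in TMD8 under ST5589, 11.72, 12.18 and 12.36 in DOHH2 under DMSO and 12.55, 12.27 and 12.002 in DOHH2 under ST5589. The DOHH2 arrays were spread more widely than the TMD8 arrays, yet none overlapped with them. GARS1 was higher in DOHH2 by 0.77 ± 0.16 under DMSO (limma adjusted p = 0.000872) and by 0.82 ± 0.16 under ST5589 (adjusted p = 0.000532).

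AARS1 charges alanine in the cytosol. Its arrays read 10.62, 10.84 and 10.66 (TMD8, DMSO), 10.94, 10.84 and 10.92 (TMD8, ST5589), 11.26, 11.41 and 11.49 (DOHH2, DMSO) and 11.49, 11.57 and 11.60 (DOHH2, ST5589). The lines did not overlap, and the difference was 0.68 ± 0.09 under DMSO (limma adjusted p = 2.32e-05) and 0.65 ± 0.09 under ST5589.

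VARS1, the cytosolic valyl enzyme, ran the other way. In TMD8 its levels were 10.97, 11.10 and 10.85 under DMSO and 10.83, 10.79 and 10.95 under ST5589, and in DOHH2 they were 10.04, 10.28 and 10.44 and 10.25, 10.50 and 10.46. Every DOHH2 array was below every TMD8 array, with a difference of -0.72 ± 0.11 under DMSO (limma adjusted p = 0.00011) and -0.45 ± 0.11 under ST5589 (adjusted p = 0.00417). Its mitochondrial counterpart VARS2 moved in the same direction. VARS2 read 9.33, 10.03 and 10.05 in TMD8 under DMSO and 9.94, 10.01 and 9.94 under ST5589, against 8.60, 8.53 and 8.52 and 8.73, 8.47 and 9.02 in DOHH2. No DOHH2 array reached a TMD8 array, although the first TMD8 DMSO array, one of those that stood apart, was well below the other TMD8 arrays. The VARS2 difference was -1.26 ± 0.17 under DMSO (adjusted p = 2.9e-05) and -1.22 ± 0.17 under ST5589. Without the 3 arrays that stood apart it was -1.52 and -1.36.

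HARS2, the mitochondrial histidyl enzyme, had the largest positive line difference of the members. Its TMD8 arrays gave 8.60, 8.48 and 8.37 under DMSO and 8.44, 8.28 and 8.36 under ST5589. Its DOHH2 arrays gave 9.51, 9.58 and 9.62 under DMSO and 9.74, 9.61 and 9.38 under ST5589. The lines were far apart on every array, by 1.09 ± 0.10 under DMSO (limma adjusted p = 7.19e-07) and 1.22 ± 0.10 under ST5589 (adjusted p = 2.32e-07), that is 2.13-fold under DMSO. HARS1, the cytosolic histidyl enzyme, lies head to head with HARS2 on chromosome 5, and the annotated starts of the pair are 85 bases apart. HARS1 gave 9.95, 10.40 and 10.18 in TMD8 and 10.16, 9.82 and 9.75 in DOHH2 under DMSO, and its difference of -0.26 ± 0.13 was not called (adjusted p = 0.109). Under ST5589 its difference was -0.25 ± 0.13 (adjusted p = 0.128). Without the 3 arrays that stood apart HARS1 was called lower in DOHH2. Its difference was then -0.50 under DMSO (limma adjusted p = 0.000698) and -0.32 under ST5589 (adjusted p = 0.00764). The stretch between the pair is shown because, in the setting reported, one of the genes it separates was called between the lines and the other was not. That contrast was not itself tested. Capitals mark the 86 bases from the HARS1 start on the minus strand to the HARS2 start on the plus strand (RefSeq, GRCh38.p14).
HARS1 and HARS2, chr5:140691345-140691480, plus strand: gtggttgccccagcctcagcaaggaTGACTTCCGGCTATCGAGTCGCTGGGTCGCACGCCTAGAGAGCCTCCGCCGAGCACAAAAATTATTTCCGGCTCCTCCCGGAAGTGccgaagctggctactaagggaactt

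SARS2, the mitochondrial seryl enzyme, read 9.82, 10.18 and 10.30 in TMD8 under DMSO and 10.24, 10.04 and 10.23 under ST5589, and 9.33, 9.03 and 9.27 and 8.96, 9.41 and 9.75 in DOHH2. The lowest TMD8 array was just above the highest DOHH2 array. The difference was -0.89 ± 0.18 under DMSO (limma adjusted p = 0.000736) and -0.80 ± 0.18 under ST5589 (adjusted p = 0.00169). RARS2, the mitochondrial arginyl enzyme, read 7.67, 7.81 and 7.93 and 7.81, 7.74 and 7.68 in TMD8 under DMSO and ST5589, and 8.85, 8.35 and 8.54 and 8.12, 8.41 and 8.64 in DOHH2. Its DOHH2 arrays were all above its TMD8 arrays, by 0.77 ± 0.14 under DMSO (adjusted p = 0.000371) and 0.65 ± 0.14 under ST5589.

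**Figure D2:**
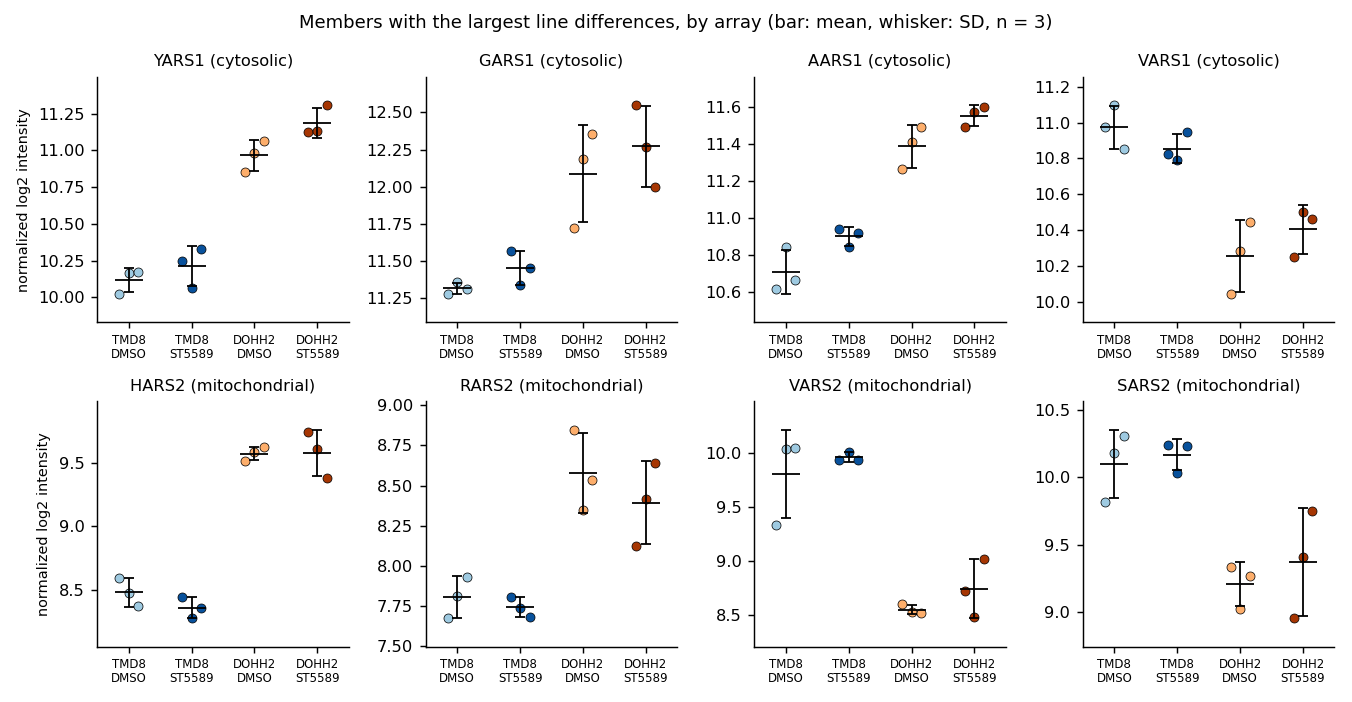
Normalized log2 intensity of the 4 cytosolic (upper row) and 4 mitochondrial (lower row) members with the largest called line differences under DMSO. Points are single arrays, bars the group mean and whiskers the SD of 3 arrays, and each panel has its own vertical scale. In every panel the 6 DOHH2 arrays lie on one side of the 6 TMD8 arrays.

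Phenylalanyl-tRNA synthetase of the cytosol is built from FARSA and FARSB subunits. Both were lower in DOHH2 under DMSO, FARSA by -0.60 and FARSB by -0.45 (limma adjusted p = 0.00072 and 0.0034). A second, dimmer FARSB probe, above background on 7 arrays, disagreed in sign, at 0.35, and the mean of both probes gave -0.05, which was not called (adjusted p = 0.63). FARS2, the single-chain mitochondrial enzyme for the same amino acid, was not called (0.17). A second probe also existed for WARS1 (0.25 against 0.10), IARS1 (0.26 against 0.22) and MARS2 (0.21 against 0.58), each of the same sign as the one used. The second VARS1 probe was above background on 5 arrays and was not tested.

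Set in pairs by amino acid, 12 amino acids had both a cytosolic and a mitochondrial gene tested. The line difference under DMSO had opposite signs in 7 pairs and the same sign in 5. Both genes were called in 5 pairs. In 3 of these the cytosolic gene was higher and the mitochondrial gene lower in DOHH2: alanyl (AARS1 0.68, AARS2 -0.44), seryl (SARS1 0.34, SARS2 -0.89) and threonyl (TARS1 0.56, TARS2 -0.42). In the methionyl pair both were higher (MARS1 0.38, MARS2 0.58), and in the valyl pair both were lower. The histidyl, asparaginyl and arginyl pairs had a called mitochondrial gene (HARS2 1.09, NARS2 0.64, RARS2 0.77) beside a cytosolic one that was not called (HARS1 -0.26, NARS1 0.04, RARS1 0.18). Leucyl and tyrosyl pairs had the reverse, with LARS1 at 0.29 and LARS2 at -0.04, and YARS2 at 0.09. Neither gene was called in the isoleucyl and tryptophanyl pairs. These pair counts are for DMSO and did not all hold under ST5589. There the leucyl pair (LARS1 0.04, LARS2 0.09) and the tryptophanyl pair (WARS1 0.53, WARS2 0.08) had the same sign, with WARS1 called. The other pairs kept their relation of signs. TARS2 (-0.25, limma adjusted p = 0.104) and LARS1 (adjusted p = 0.752) were not called under ST5589.

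By assembly, the 7 tested enzymes of the multi-synthetase complex (EPRS1, IARS1, LARS1, MARS1, QARS1, RARS1 and KARS1) had 3 higher and 2 lower in DOHH2 under DMSO and 1 in each direction under ST5589, where 26.1% of all genes were called higher under either treatment and 27.7% and 28% lower. QARS1, the glutaminyl enzyme, was the lowest of them at -0.51 ± 0.10 (limma adjusted p = 0.000862), and MARS1 the highest at 0.38 ± 0.12 (adjusted p = 0.0201). KARS1 gave 9.85, 9.70 and 9.70 in TMD8 and 9.52, 9.54 and 9.44 in DOHH2 under DMSO, and 9.59, 9.56 and 9.70 and 9.44, 9.45 and 9.498 under ST5589. Its groups did not overlap under either treatment, at -0.25 ± 0.08 (adjusted p = 0.0206) and -0.15 ± 0.08 (adjusted p = 0.135). Of the 11 cytosolic members outside the complex, 5 were higher and 3 lower under DMSO, and 6 and 3 under ST5589.

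Read against the promoter letters printed above, the 6 tested cytosolic members that hold the ATF4 element (AARS1, GARS1, IARS1, MARS1, NARS1 and TARS1) all had a positive line difference under both treatments, with medians of 0.47 and 0.57, and 4 of them were called higher each time. Those called were AARS1, GARS1, MARS1 and TARS1. The 9 cytosolic members whose window lacked it had medians of -0.25 and -0.15, with 2 higher and 4 lower under DMSO and 2 higher and 3 lower under ST5589. Of all genes 26.1% were called higher under either treatment, and 27.7% and 28% lower. The split was not tested, and a match to these letters is a description only.

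The second question was whether ST5589 changed the synthetases. In TMD8 none of the 34 members was called by limma, where 0.928% of all genes were, and 4 (11.8%) had an unadjusted p under 0.05, against 833 of all genes (7.29%). In DOHH2 none was called, where 0.035% of all genes were, and again 4 had an unadjusted p under 0.05, against 545 of all genes (4.77%). Averaged over the lines none was called against 0.744% of all genes, with 6 (17.6%) at an unadjusted p under 0.05, all cytosolic, against 1202 of all genes (10.5%). The difference of the effect between the lines was called for none, against 0.0175% of all genes (0.00876% in each direction), with 0 at an unadjusted p under 0.05, against 307 of all genes (2.69%). These results do not show that levels were equal: the 95% interval for SARS1, for example, was 0.02 to 0.43 in TMD8 and 0.06 to 0.46 in DOHH2.

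The class medians lay on different sides of the all-gene median in the setting reported, though not under common-median scaling, and were not tested. The median ST5589 effect of cytosolic members was 0.10 in TMD8 and 0.15 in DOHH2, and that of mitochondrial members -0.08 and -0.015, where all genes had 0.01 in both lines. Of 18 cytosolic members 13 were positive in TMD8 and 12 in DOHH2, with 11 positive in both, and of 16 mitochondrial members 6 and 7 were, with 4 positive in both. Among all genes 52.7% and 53.3% were positive. Common-median scaling turned the cytosolic medians to -0.14 and -0.05 and the mitochondrial ones to -0.23 and -0.09, where all genes were at -0.09 and -0.04. Without the 3 arrays that stood apart the cytosolic medians were 0.04 and 0.06 and the mitochondrial ones -0.08 and -0.04. Between single arrays of a group the class medians varied with an SD of 0.05 for cytosolic and 0.03 for mitochondrial members. Over the 34 members the effects in the 2 lines, which share no array, had a Pearson correlation of 0.59, against 0.37 over all genes. Genes are not independent replicates, and ST5589 arrays occupied matching positions on the 2 chips.

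**Figure D3:**
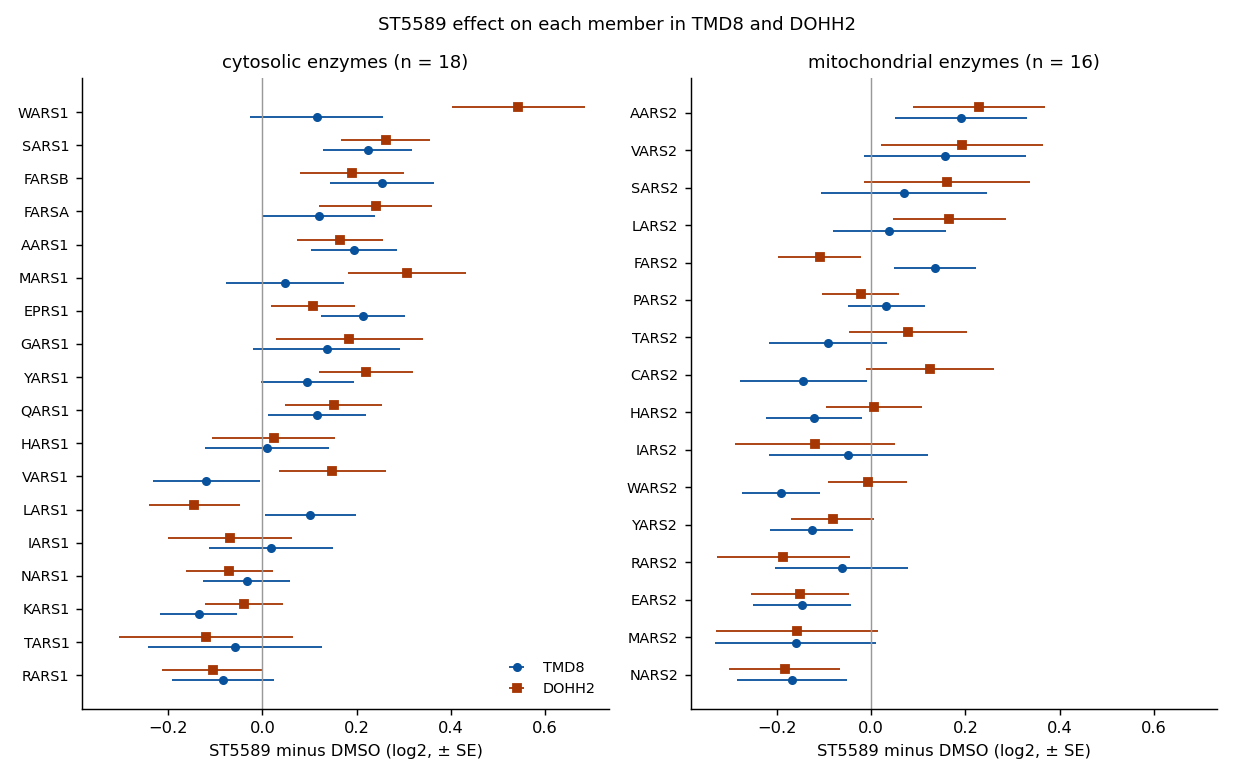
ST5589 effect on each member in TMD8 (blue circles) and DOHH2 (brown squares), as log2 ST5589 minus DMSO with its SE, cytosolic enzymes on the left and mitochondrial ones on the right, ordered by the average of the lines. No member was called in either line. The largest value is WARS1 in DOHH2 at 0.54.

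SARS1, the cytosolic seryl enzyme, was the only member whose ST5589 arrays were all above its DMSO arrays in both lines, a pattern that 1.16% of all genes showed. No member had all ST5589 arrays below in both lines, against 1.12% of all genes. Its arrays gave 9.15, 9.13 and 9.05 under DMSO and 9.24, 9.36 and 9.40 under ST5589 in TMD8, and 9.57, 9.36 and 9.42 and 9.68, 9.60 and 9.86 in DOHH2. The gap between the groups was narrow in both lines. The effect was 0.22 ± 0.09 in TMD8 (limma adjusted p = 0.607), 0.26 ± 0.09 in DOHH2 (adjusted p = 0.927) and 0.24 ± 0.07 on average (adjusted p = 0.162). Of the 23 alternative settings run for the average 1, array weights, called the average (adjusted p = 0.0322), and the adjusted p reached 0.957 in another.

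WARS1, the cytosolic tryptophanyl enzyme, is also a well-known interferon-induced gene. In TMD8 it gave 9.84, 10.19 and 9.98 under DMSO and 10.29, 9.93 and 10.13 under ST5589, and in DOHH2 10.18, 9.81 and 10.31 under DMSO and 10.53, 10.60 and 10.81 under ST5589. The groups overlapped in TMD8 and not in DOHH2. The DOHH2 effect of 0.54 ± 0.14 (1.46-fold, 95% interval 0.24 to 0.85) had the largest size of any member, but did not pass the test (limma adjusted p = 0.597). The TMD8 effect was 0.11 ± 0.14 (adjusted p = 0.928), or -0.11 under common-median scaling, where the all-gene median was -0.09, and the difference between the lines was 0.43 ± 0.20 (adjusted p = 1). A second WARS1 probe gave 0.43 in DOHH2 and 0.22 in TMD8. Without the second DOHH2 ST5589 array, which had signal at TMD8-bright probes, the DOHH2 effect was 0.57. None of 18 tested interferon-response genes was called for ST5589, and their median effect was 0.07 in TMD8 and 0.09 in DOHH2. Between the lines under DMSO, 3 of the 18 were higher and 12 lower in DOHH2, led by ISG15 at -3.13, IFIT1 at -3.06 and MX1 at -2.77, where 26.1% of all genes were called higher and 27.7% lower. WARS1 itself was at 0.10 in that comparison and was not called.

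In TMD8, members with ST5589 arrays all above the DMSO arrays numbered 5 (AARS1, EPRS1, FARSB, SARS1 and FARS2), where 9.61% of all genes did so, and 2 (EARS2 and WARS2) were all below, where 8.17% of all genes were. In DOHH2 the count was 3 above (SARS1, WARS1 and YARS1), against 4.41% of all genes, and 0 below, against 3.91%. FARSB gave 13.69, 13.78 and 13.78 under DMSO and 13.98, 14.03 and 14.00 under ST5589 in TMD8, with 13.01, 13.38 and 13.50 and 13.41, 13.49 and 13.56 in DOHH2. Its TMD8 effect of 0.25 ± 0.11 was the largest of any member in that line (limma adjusted p = 0.637), while in DOHH2 the effect was 0.19 ± 0.11, or 0.01 without the arrays that stood apart. The second, dimmer FARSB probe gave 0.03 in TMD8 and -0.14 in DOHH2. EPRS1 gave 10.85, 10.998 and 11.02 and 11.16, 11.17 and 11.17 in TMD8 under DMSO and ST5589, and 11.18, 11.32 and 11.09 and 11.22, 11.30 and 11.39 in DOHH2. The 3 TMD8 ST5589 arrays of EPRS1 were within about a hundredth of each other and above all DMSO arrays, with an effect of 0.21 ± 0.09 (adjusted p = 0.598), whereas the DOHH2 groups overlapped at 0.11 ± 0.09. Under common-median scaling EPRS1 was at -0.05 in TMD8 and -0.10 in DOHH2, above the all-gene median of -0.09 in TMD8 and below that of -0.04 in DOHH2.

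**Figure D4:**
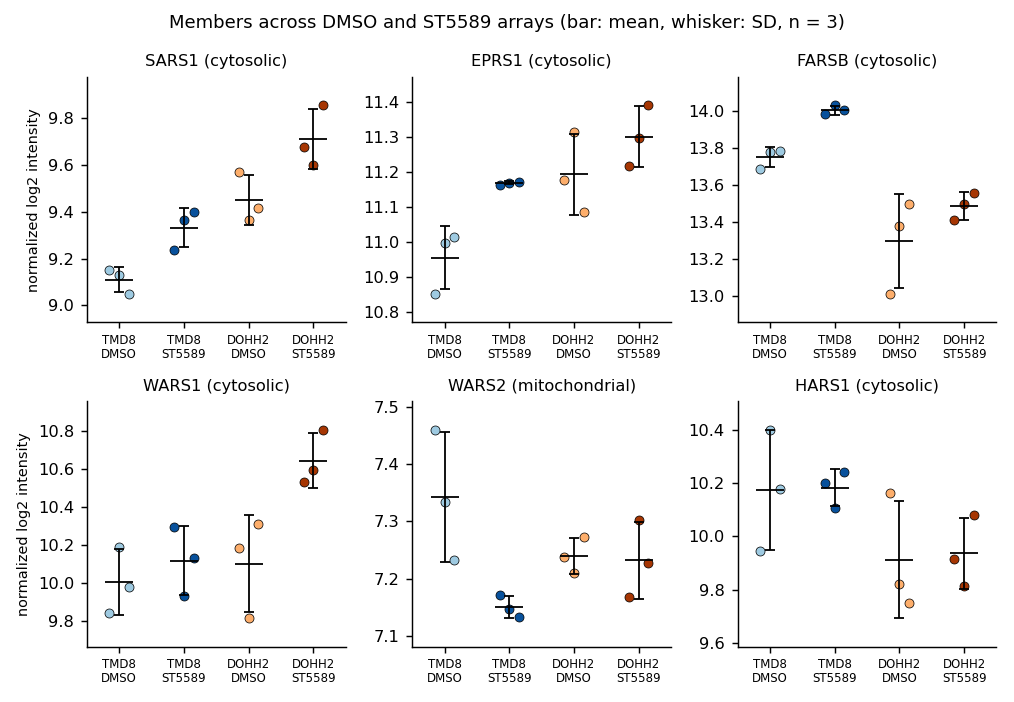
Normalized log2 intensity of 6 members on all 12 arrays, with the group mean (bar) and SD (whisker, n = 3), each panel on its own vertical scale. SARS1 ST5589 arrays lie above DMSO arrays in both lines, WARS1 in DOHH2 only, EPRS1 and FARSB in TMD8 only, and WARS2 lies below in TMD8. HARS1 overlaps between treatments in both lines.

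MARS1, the cytosolic methionyl enzyme, gave 9.38, 9.86 and 9.67 under DMSO and 10.14, 9.81 and 9.89 under ST5589 in DOHH2, and 9.16, 9.24 and 9.39 and 9.31, 9.25 and 9.37 in TMD8. The groups overlapped in both lines, with effects of 0.31 ± 0.12 in DOHH2 (limma adjusted p = 0.927) and 0.05 ± 0.12 in TMD8. For GARS1, whose arrays are given above, the effects were 0.14 ± 0.16 and 0.18 ± 0.16 in TMD8 and DOHH2, and for KARS1 -0.14 ± 0.08 and -0.04 ± 0.08. The groups overlapped in both lines for GARS1 and for KARS1. Under common-median scaling GARS1 was at -0.13 in TMD8 and -0.025 in DOHH2, below the all-gene median of -0.09 in TMD8 and above that of -0.04 in DOHH2.

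Among mitochondrial enzymes, WARS2 had the largest effect in TMD8 by a small margin. It gave 7.46, 7.33 and 7.23 under DMSO and 7.17, 7.15 and 7.13 under ST5589 in TMD8, a difference of -0.19 ± 0.08 (limma adjusted p = 0.633), and 7.24, 7.21 and 7.27 and 7.17, 7.30 and 7.23 in DOHH2 (-0.01). The ST5589 arrays were all below the DMSO arrays in TMD8 and overlapped with them in DOHH2. AARS2, the mitochondrial alanyl enzyme, gave 8.35, 8.89 and 8.63 and 8.78, 8.94 and 8.72 in TMD8 and 8.08, 8.21 and 8.26 and 8.20, 8.39 and 8.65 in DOHH2. Its effects of 0.19 ± 0.14 and 0.23 ± 0.14 were positive in both lines with overlapping groups. NARS2, the asparaginyl enzyme, gave 8.96, 8.58 and 8.63 and 8.499, 8.55 and 8.61 in TMD8 and 9.30, 9.43 and 9.35 and 9.24, 9.34 and 8.96 in DOHH2. Its effects were -0.17 ± 0.12 and -0.18 ± 0.12, again with overlap. For VARS2 and RARS2 in DOHH2 the effects were 0.19 ± 0.17 and -0.19 ± 0.14, with overlapping groups.

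The remaining members had ST5589 effects between -0.16 and 0.24 in the lines, all with an adjusted p above 0.6. The average effect was higher in the cytosolic gene of 8 of the 12 pairs matched by symbol. The tryptophanyl pair was the most unequal, with averages of 0.33 for WARS1 and -0.10 for WARS2. The 6 cytosolic members with the ATF4 element had median effects of 0.03 in TMD8 and 0.05 in DOHH2, and the 9 without it 0.12 and 0.15.

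Of the wider ATF4 list of 34 amino acid response genes, 30 were tested. In TMD8, 4 of them rose with ST5589 (13.3%, against 0.56% of all genes called higher) and none fell. They were DDIT4, an inhibitor of mTORC1 signalling (1.05 ± 0.11, limma adjusted p = 0.000381), the transcription factors ATF3 (0.91 ± 0.11) and DDIT3 (0.89 ± 0.16), and INHBE (0.49 ± 0.11). In DOHH2, 2 rose (6.67%, against 0.0175% of all genes called higher), ATF3 (1.16 ± 0.11, adjusted p = 0.000496) and INHBE (0.77 ± 0.11). The list medians were 0.28 and 0.22, with 27 of 30 genes positive in each line. Averaged over the lines 7 rose (23.3%, against 0.377% of all genes called higher), led by ATF3 (1.04), DDIT4 (0.86) and TRIB3 (0.68). Without the 3 arrays that stood apart the calls were 5 in TMD8 and 1 in DOHH2, where 94 and 2 of all genes were called higher. Without the second DOHH2 ST5589 array the calls in the list were 3 and 1. Under common-median scaling no gene of the list was called in either line, and the medians were 0.12 and 0.11, where 7 of all genes were called higher and 2 lower in TMD8 and 0 in DOHH2.

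Between the lines under DMSO, 17 of the 30 ATF4-list genes were higher and 5 lower in DOHH2, with a median of 0.34, against 26.1% of all genes called higher and 27.7% called lower. Amino acid enzymes led those higher: PYCR1 of proline synthesis (2.17 ± 0.17), and PHGDH (1.87 ± 0.15) and PSPH (1.54 ± 0.18) of serine synthesis. ATF4 itself was at 0.87. ATF5 (-2.93 ± 0.20) and ATF3 (-2.51 ± 0.11) led those lower. Under ST5589 the counts were 16 higher and 5 lower, against 26.1% and 28% of all genes. Common-median scaling left 12 higher and 4 lower under DMSO and 9 and 3 under ST5589.

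**Figure D5:**
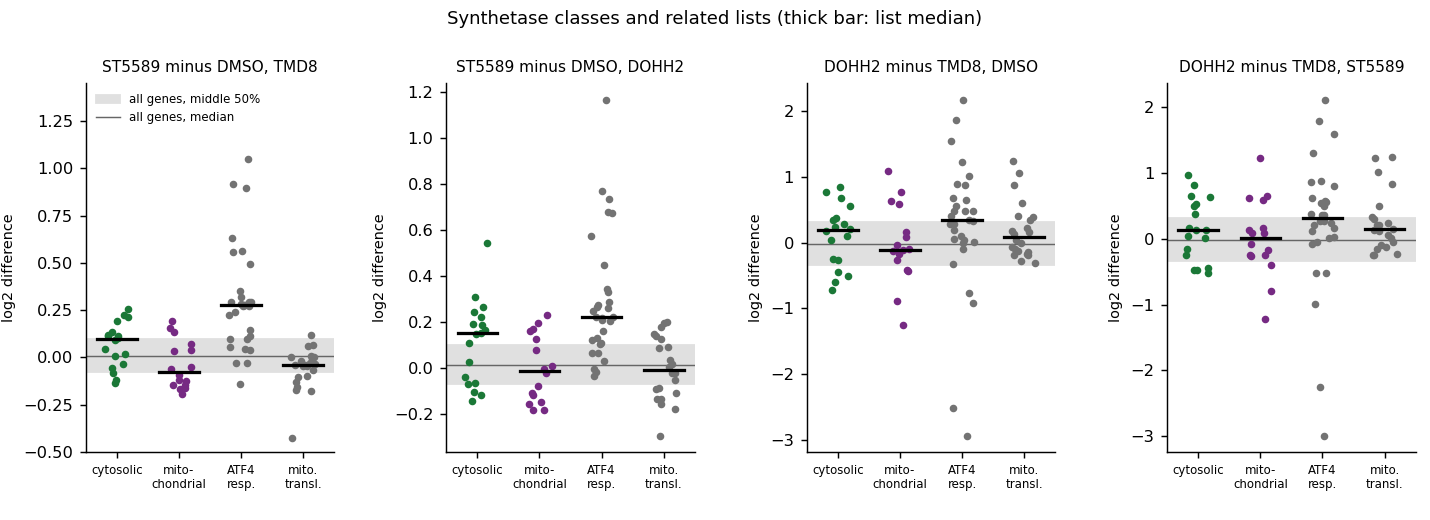
Log2 differences of single genes in 4 lists, one panel for each comparison, with the list median as a thick bar, the median of all 11419 genes as a thin line and their middle 50% as a grey band. The ATF4 list has medians of 0.28 and 0.22 for ST5589 in TMD8 and DOHH2, the cytosolic synthetases 0.10 and 0.15, and the mitochondrial synthetases -0.08 and -0.015. Under common-median scaling both class medians were below 0 in both lines, as was the median of all genes.

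Partners of the 2 synthetase classes were also read, beside the shares of all genes called between the lines, 26.1% higher and 27.7% lower under DMSO and 26.1% and 28% under ST5589. Of 9 tested genes for multi-synthetase scaffolds, elongation factors and transfer RNA export, none was called for ST5589 in either line, with medians of -0.02 and -0.05, and EEF1D had the largest effect in TMD8 at 0.21. Under DMSO 4 were higher in DOHH2 and none lower: the elongation factors EEF1D (1.18 ± 0.13) and EEF2 (0.55 ± 0.13), the transfer RNA exporter XPOT (0.50 ± 0.19) and the scaffold AIMP1 (0.37 ± 0.12). Under ST5589 4 were higher and 1 was lower. Common-median scaling left 2 higher under DMSO and 3 under ST5589, with none lower. Of 22 tested mitochondrial translation genes, none was called for ST5589 in either line, with medians of -0.04 and -0.01, and TRMT10C had the largest effect in TMD8 at -0.43 ± 0.31. Between the lines 7 of these were higher and 1 lower in DOHH2 under each treatment, 36.4% of the 22, where 53.8% of all genes were called under DMSO and 54.1% under ST5589. Common-median scaling left 2 higher and 1 lower under DMSO and 4 and 0 under ST5589. The leaders under DMSO were the transfer RNA modifier TRIT1 (1.25 ± 0.11), the release factor MTRF1L (1.07 ± 0.10) and TRMT10C (0.88 ± 0.31).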

How the data were processed

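Per the labels' protocols, total RNA was column-purified, quality-checked and labelled with biotin, and the submitters' processing notes name GenomeStudio without a version. The authors deposited probe intensity values on a linear scale, not normalized, and processed log2 values, for which no source used here states the normalization. The deposited log2 values ranked probes exactly as the intensities did (Spearman correlation 1, medians of 6.67) and served as an alternative. Intensities were background-corrected (normexp, offset 50), quantile-normalized and log2-transformed with limma 3.58.1 in R 4.3.3. A probe was above background past 2.33 SD over the mode of its array, and was kept if above it in all 3 arrays of a group. The kept probe with the highest mean stood for a gene. Of 47231 probes, 30113 had 1 symbol in the platform annotation, 8 had several and 17110 had none, and 30074 matched a current gene. The 5159 kept probes without a name were not tested.

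All 12 arrays entered 1 limma model with 1 coefficient per group, and p-values were adjusted over 11419 genes (called at 0.05). Folds and differences are on the log2 intensity scale, and levels of different probes were not compared. The model was run on simulated data with independent noise for each gene and array. That noise held no deviations shared across an array, so the run does not bear on the arrays that stood apart. Replicate numbers in the labels did not pair the arrays: deviations of same-numbered arrays correlated at -0.49 to 0.00 within a line and at -0.34 to 0.42 across lines. No 2 arrays were identical. Arrays were described in full for 4 members per class with the largest called line difference, 3 per class with the largest ST5589 effect in each line, and GARS1, KARS1, EPRS1 and WARS1. HARS1, shown beside HARS2, was added after its values were seen. Members, lists and rules were chosen with earlier results of these data known. In all, 24 alternative settings were run (23 for the average over the lines), of which 1, leaving out 3 arrays together, was chosen after seeing the data.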

Additional observations from a re-analysis of the deposited data

How the results depend on the processing

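Scaling arrays to a common median changed most. The ST5589 medians became -0.14 (cytosolic) and -0.23 (mitochondrial) in TMD8, -0.053 and -0.086 in DOHH2, -0.098 and -0.14 on average, and 0.083 and 0.12 for the difference between the lines. The mitochondrial line median under DMSO became -0.18, and 9 and 7 members were called between the lines under DMSO and ST5589. The same scaling turned EPRS1 to -0.049, GARS1 to -0.13 and WARS1 to -0.11 in TMD8, EPRS1 to -0.099 and GARS1 to -0.025 in DOHH2, and EPRS1 to -0.074 and GARS1 to -0.076 on average. None of these had been called. It moved the median of all genes to -0.094 in TMD8 and -0.041 in DOHH2, and the cause was not tested.

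Leaving out the 3 arrays that stood apart, chosen after seeing the data, gave cytosolic ST5589 medians of 0.041 in TMD8, 0.061 in DOHH2 and 0.074 on average, and mitochondrial line medians of -0.061 under DMSO and -0.043 under ST5589. WARS1 between the lines under DMSO was then at -0.022. With array weights 1 member, SARS1, was called on average, and the GARS1 difference between the lines turned to -0.11.

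Leaving out 1 array at a time gave 0 calls in every ST5589 comparison, 17 to 22 between the lines under DMSO and 16 to 19 under ST5589. Class medians ranged as follows: cytosolic 0.041 to 0.14 in TMD8 and 0.074 to 0.20 in DOHH2, mitochondrial -0.077 to -0.047 in TMD8, -0.050 to 0.0095 in DOHH2, 0.0080 to 0.081 for the difference between the lines, -0.12 to -0.052 between lines under DMSO and -0.043 to 0.018 under ST5589. The GARS1 difference in effect between the lines ranged from -0.13 to 0.18, and WARS1 between the lines under DMSO from -0.0044 to 0.24. A replicate block, for numbers that did not pair the arrays, gave 0 calls for ST5589 and 21 and 18 between the lines. Only some members were followed singly: GARS1, KARS1, EPRS1 and WARS1 in every comparison, and those with the largest differences within and between the lines. For these, 1110 of 1144 values under the alternatives kept their direction and their side of the threshold, 20 lost the call, 1 gained it and 13 turned in sign. Values that were never called count among those kept. Members not followed there also lost line calls. TARS1 lost its call in 5 of 24 settings under DMSO and in 7 under ST5589, and LARS1 in 6 and MARS1 in 5 under DMSO. AARS1, FARSA, GARS1, VARS1, YARS1, HARS2, RARS2, SARS2 and VARS2 were called between the lines under DMSO in all 24 settings, and EARS2 in 7.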

Other observations

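The eIF2 arm lies upstream of ATF4. A list of 11 genes held the eIF2 kinases, eIF2 subunits, phosphatase partners, GCN1 and IMPACT, and 10 of them were tested. Of these 10, 5 were higher and 3 lower in DOHH2 under DMSO (limma adjusted p under 0.05), and likewise under ST5589. Of all genes 26.1% were called higher and 27.7% lower under DMSO, and 26.1% and 28% under ST5589. Scaling to a common median left 1 of the 10 higher and 2 lower under DMSO, and 2 higher and 1 lower under ST5589. PPP1R15A, which recruits the phosphatase that reverses eIF2 phosphorylation, was lower by a log2 difference of -2.93 ± 0.14 and the kinase gene EIF2AK3 (PERK) higher by 1.58 ± 0.16. EIF2AK4, which encodes GCN2, the sensor of uncharged transfer RNA, was lower at -0.48 ± 0.14 (adjusted p = 0.01). For ST5589, PPP1R15A rose in TMD8 by 0.69 ± 0.14 (adjusted p = 0.0391), was at 0.47 ± 0.14 in DOHH2 (adjusted p = 0.881), and no other gene of the 10 was called in either line, where 0.928% and 0.035% of all genes were. The TMD8 call of PPP1R15A was lost under common-median scaling and when the second DOHH2 ST5589 array was left out.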
